A study of Rattus norvegicus with 8 samples.

Results

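The unfolded protein response and the integrated stress response were followed through 10 genes: Ern1, Atf6, Eif2ak3, Xbp1, Herpud1, Atf4, Ddit3, Trib3, Chac1 and Asns. Members were the rat probes of the array whose gene name equals one of these symbols. All 10 genes were found, among 25528 named genes, and they were read by 15 of the 45598 rat probes. The question asked of them was whether RNA levels in the 2 responses differed between irradiated and non-irradiated cells at 6 h.

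The cells were osteoblast-like cells from the calvaria of Wistar rats 3 to 5 days old, released by serial enzymatic digestion. They were given osteoinduction medium with ascorbic acid, β-glycerophosphate and dexamethasone, which in the paper's qPCR cultures was added right after irradiation. One group of 4 cultures was exposed for 60 s, with their culture medium taken off, to an Er:YAG laser at a fluence of 3.3 J/cm2, and the other 4 received 0 J/cm2. RNA of both groups was collected 6 h later and labeled with Cy3, 1 array per culture. Cultures were numbered 1 to 4 in each group, and both arrays of a number carry the same animal number, so each irradiated array was compared with the non-irradiated array of its own replicate number. All 8 arrays lay on 1 slide and were read in 1 scan. Slide columns 1 and 3 held the non-irradiated arrays and columns 2 and 4 the irradiated ones, so effects of the column cannot be told apart from those of irradiation. The median processed signal was 56.2 to 72.6 on non-irradiated and 56.8 to 84.8 on irradiated arrays, with 26543 to 29946 and 28173 to 30490 probes well above background. All 15 probes of the 10 genes were well above background on 8 of 8 arrays. Precision is limited by having 4 arrays in each group.

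When unfolded proteins build up in the endoplasmic reticulum (ER), the membrane sensors IRE1 (Ern1), ATF6 and PERK (Eif2ak3) start the unfolded protein response, which raises chaperones, ER-associated degradation and lipid synthesis. PERK shares its target, the translation factor eIF2, with kinases that sense amino acid shortage, heme shortage and double-stranded RNA, and the resulting integrated stress response lowers general translation while ATF4 is made. Osteoblasts secrete large amounts of collagen, and PERK and ATF4 are both known to be needed for normal bone formation.

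At 6 h, 0 of the 10 genes differed between irradiated and non-irradiated arrays in the limma fit over 26391 probes, at an adjusted p under 0.1 or at an unadjusted p under 0.05. Across all probes tested, 0% passed the adjusted threshold, and 670 probes, or 2.54%, had an unadjusted p under 0.05, a count that ran from 389 to 1407 with 1 replicate number left out. That 2.54% is below the share of 0.05 that no differences at all would give on average, so it is not read as a sign of differences. The leading probe of a gene, the one with the highest mean signal, was higher in irradiated arrays for 7 genes and lower for 3. Their median log2 fold change was 0.032, beside -0.0035 over all probes tested, and it was 0.013 without replicate 2, 0.020 without replicate 4 and 0.075 with the deposited log2 values. Trib3 had the largest difference, 0.25, and the 95% intervals of the 10 genes together ran from a 0.634-fold to a 1.59-fold level. A change of 2-fold in either direction lay outside the interval of each leading probe, whereas changes within these intervals could not be told from 0.

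**Figure D1:**
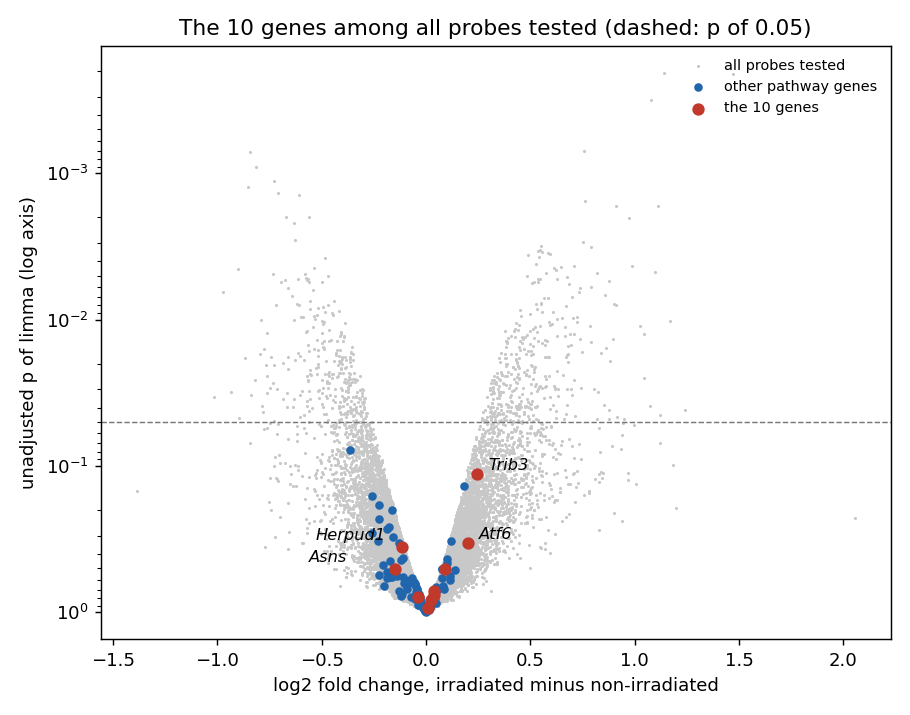
Each grey point is 1 of the 26391 probes tested, with its log2 fold change (irradiated minus non-irradiated) and its unadjusted limma p on a log axis; blue points are the other genes of the pathway and red points are the leading probes of the 10 genes. All red and blue points lie below the dashed line at a p of 0.05, with Calr the nearest to it among the blue points and Trib3 among the red points.

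The ER membrane sensors come first in the pathway. Ern1, the kinase and endoribonuclease that splices Xbp1 RNA, had log2 signals of 9.57, 9.09, 9.27 and 8.79 on non-irradiated arrays 1 to 4 and of 9.46, 9.36, 9.03 and 8.91 on irradiated arrays 1 to 4. Atf6, the sensor that is cut in the Golgi to free a transcription factor, had 13.60, 12.72, 12.81 and 12.58, and after irradiation 13.28, 13.51, 12.91 and 12.81. Eif2ak3, the eIF2 kinase of the ER, had 10.87, 10.34, 10.50 and 10.12, and after irradiation 10.65, 10.67, 10.34 and 10.02. For all 3 sensors the groups overlapped, and the 3 highest arrays were the same, namely non-irradiated 1, irradiated 1 and irradiated 2. The log2 fold changes were 0.011 ± 0.13 (SE, n = 4 pairs) for Ern1, 0.20 ± 0.19 for Atf6 and -0.038 ± 0.14 for Eif2ak3, each smaller than or close to its SE. Here and below, the SE is the moderated one of limma, whose variance borrows from all probes tested, and not the SE of the 4 pair differences alone. Atf6 differed by -0.32 in pair 1 and by 0.79 in pair 2, and pairs 3 and 4 lay between, at 0.10 and 0.24. Ern1 and Eif2ak3 also fell in pair 1 and rose in pair 2, and for all 3 sensors the largest rise was in pair 2. Without replicate 2 the Atf6 value was 0.0049, so that pair carried most of it, and without replicate 1 it was 0.38. Ern1 changed sign without replicate 2 or 4, to -0.076 and -0.027. Eif2ak3 did so without replicate 1 or 3, to 0.024 and 0.0021.

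Xbp1 and Herpud1 lie downstream of the sensors. Xbp1, whose spliced RNA encodes a transcription factor for chaperone and degradation genes, had log2 signals of 13.43, 13.19, 13.05 and 12.71 on non-irradiated arrays and of 13.24, 13.45, 12.98 and 12.87 on irradiated arrays. Its single probe reads total Xbp1 RNA, so splicing was not measured. Herpud1, an ER membrane protein of the degradation machinery, had 12.59, 12.40, 12.35 and 12.31, and after irradiation 12.33, 12.34, 12.20 and 12.33. The groups overlapped for both genes. Xbp1 had a log2 fold change of 0.039 ± 0.13 (SE, n = 4 pairs) and was higher in 2 of 4 pairs. Its value was -0.035 without replicate 2 and 0.12 without replicate 1. Herpud1 had -0.11 ± 0.11 and was lower in 3 of 4 pairs, by differences of -0.26, -0.056 and -0.15, with 0.020 in pair 4.

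Atf4 and Ddit3 are the transcription factors of the integrated stress response among the 10 genes. Atf4, whose protein is regulated mainly by translation, had log2 signals of 14.71, 14.27, 14.17 and 14.14 on non-irradiated arrays and of 14.52, 14.56, 14.32 and 14.24 on irradiated arrays. Ddit3, which encodes the pro-apoptotic factor CHOP, had 11.85, 11.52, 11.38 and 11.87, and after irradiation 11.88, 11.54, 11.47 and 11.88. The Ddit3 signal followed the replicate number closely: numbers 1 and 4 were high and numbers 2 and 3 low in both groups. Its pair differences were 0.034, 0.023, 0.097 and 0.0084, which made it the single gene of the 10 that was higher in 4 of 4 pairs. Over all probes with 8 values, 3.57% were higher and 4% lower in 4 of 4 pairs, so 1 of 10 and 0 of 10 are counts that few genes decide. The Ddit3 log2 fold change was 0.040 ± 0.11 (SE, n = 4 pairs), with a 95% interval from a 0.860-fold to a 1.23-fold level. This SE, moderated by limma, exceeded each of the 4 pair differences of Ddit3. The log2 fold change was 0.092 with normexp and 0.093 with the uncorrected mean signal, which both start from the mean and not the processed signal. It was 0.11 with the deposited values, which may differ in more than the starting signal, and 0.022 without replicate 3. The cause of these differences was not tested. Its exact two-sided sign-flip p over the 4 pairs was 0.125, the smallest that 4 pairs allow. Atf4 was higher in pairs 2 to 4, by 0.29, 0.15 and 0.10, and lower in pair 1, with a difference of -0.19. Its log2 fold change was 0.090 ± 0.13, and 0.18 without replicate 1 and 0.022 without replicate 2.

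Trib3, Chac1 and Asns are target genes of ATF4. Trib3, a pseudokinase that restrains ATF4 and CHOP, had log2 signals of 5.80, 6.02, 6.55 and 6.53 on non-irradiated arrays and of 6.30, 6.32, 6.49 and 6.79 on irradiated arrays. It was higher by 0.50, 0.30 and 0.25 in pairs 1, 2 and 4 and differed by -0.064 in pair 3. The groups overlapped, since irradiated replicates 1 to 3 lay within the non-irradiated range. The log2 fold change was 0.25 ± 0.13 (SE, n = 4 pairs), with a 95% interval from a 0.947-fold to a 1.49-fold level, an adjusted p of 1.00 in limma and an exact sign-flip p of 0.25. The value was 0.14 with normexp, 0.16 with the mean signal and 0.18 with the deposited values, and 0.16 without replicate 1. In slide row 1, which held replicates 1 and 2, the Trib3 value was 0.40, and in row 2, with replicates 3 and 4, it was 0.094.

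Chac1, which breaks down glutathione, varied least among the 10 genes. Its log2 signals were 7.85, 7.83, 7.69 and 7.78 on non-irradiated arrays and 7.84, 7.83, 7.81 and 7.76 on irradiated arrays, a range of 0.16 over all 8. The log2 fold change was 0.024 ± 0.11 (SE, n = 4 pairs). It came from pair 3, at 0.12, since the other pairs differed by -0.0044, -0.0018 and -0.019, and it was -0.0055 with the deposited log2 values.

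Asns, which makes asparagine, moved in opposite directions in different pairs. Its leading probe had log2 signals of 12.28, 12.90, 12.84 and 12.64 on non-irradiated arrays and of 12.50, 12.07, 12.61 and 12.90 on irradiated arrays. Irradiated replicate 2 was the lowest of the 8 arrays, and the groups overlapped. The pair differences were 0.22, -0.84, -0.24 and 0.26, and the log2 fold change was -0.15 ± 0.21 (SE, n = 4 pairs). Without replicate 2 it was 0.082, so that pair decided its direction.

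**Figure D2:**
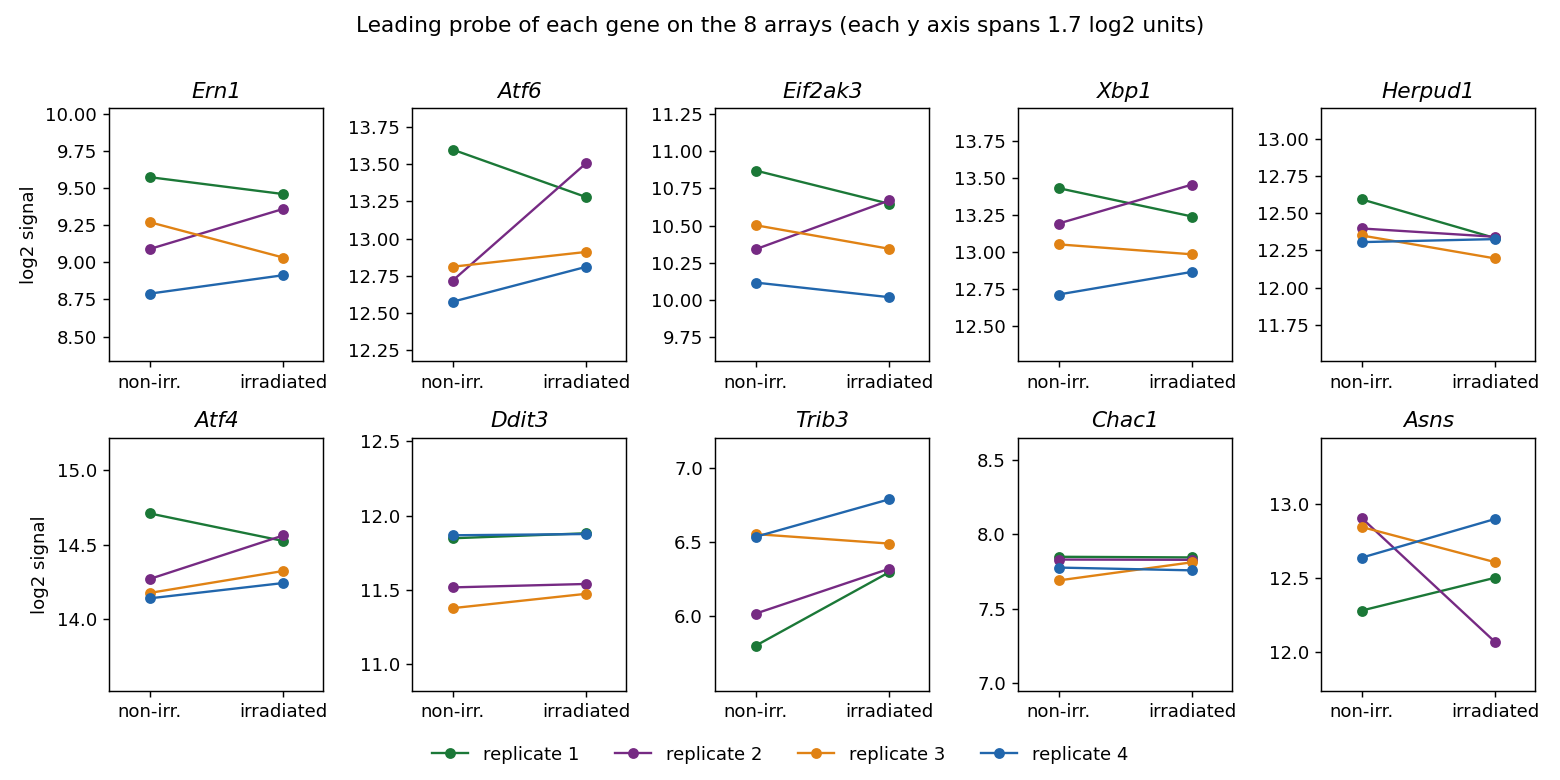
Log2 signal of the leading probe of each gene (y axis, 1.7 log2 units in every panel) on the non-irradiated and irradiated arrays, with a line joining the arrays of a replicate number. Lines of replicates 1 and 2 slope opposite ways for Atf6 and Asns, stay nearly flat for Ddit3 and Chac1, and rise in 3 of 4 pairs for Trib3; the groups overlap in all 10 panels.

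Another 5 probes read 4 of the genes at other places, and they gave a second view of the same RNAs. The sequences of the leading Atf4 and Asns probes and of the second Ern1 probe are shown as examples of what the array reads. They were taken to be coding sequence from general knowledge of these proteins, since no annotation of the build was used here, and capitals mark no part of them. They are given from the 5′ end as printed on the array, with positions of the build rn4 at chr7:118538840-118538899 on the plus strand for Atf4, chr4:32759136-32759195 on the minus strand for Asns and chr10:95794565-95794624 on the minus strand for Ern1.
Atf4 probe: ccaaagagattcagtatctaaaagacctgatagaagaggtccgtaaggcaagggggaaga
Asns leading probe: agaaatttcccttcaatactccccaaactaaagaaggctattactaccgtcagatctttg
Ern1 second probe: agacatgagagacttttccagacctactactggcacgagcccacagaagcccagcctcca
The Asns probe was spotted 2 times and the Atf4 probe 10 times on each array, and every other probe of the 10 genes once.

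The second Asns probe lies 469 bases further downstream and had log2 signals of 12.23, 12.08, 12.30 and 11.52 on non-irradiated arrays and of 11.86, 12.18, 11.85 and 11.78 on irradiated arrays. Its pair differences were -0.37, 0.10, -0.45 and 0.26. The 2 Asns probes thus had opposite signs in pairs 1 and 2 and the same sign in pairs 3 and 4, although their log2 fold changes were alike, at -0.15 and -0.11. The second Ern1 probe, 3734 bases upstream of the leading one, differed by -0.30, 1.05, -0.13 and 0.063 in the 4 pairs. Those signs were the same as for the leading Ern1 probe in each pair, and the log2 fold change was 0.17 ± 0.24 (SE, n = 4 pairs).

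The Atf6 probe farthest upstream, 3991 bases from the leading one, differed by -0.43, 0.75, -0.089 and -0.0077, and followed it in pairs 1 and 2. The third Atf6 probe differed by 0.20, 0.036, 0.11 and 0.14 and was higher in 4 of 4 pairs, with a log2 fold change of 0.12 ± 0.11. Its log2 signals covered 0.34 over the 8 arrays, against 1.02 for the leading probe, so the high arrays of the leading probe were not seen with it. The second Eif2ak3 probe, 8467 bases upstream, differed by 0.31, -0.49, -0.59 and -0.061 in the 4 pairs, opposite to the leading probe in pairs 1 and 2. It was dim, with mean log2 signals of 4.66 on non-irradiated and 4.45 on irradiated arrays, though well above background on 8 of 8 arrays. It holds a repeat of 5 TTG units, in capitals here with the bases around it.
Eif2ak3 second probe, repeat: ttattaTTGTTGTTGTTGTTGttat
Over the 15 probes, none was past an unadjusted p of 0.05 in limma, and the part of probe sequence in these differences was not tested.

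**Figure D3:**
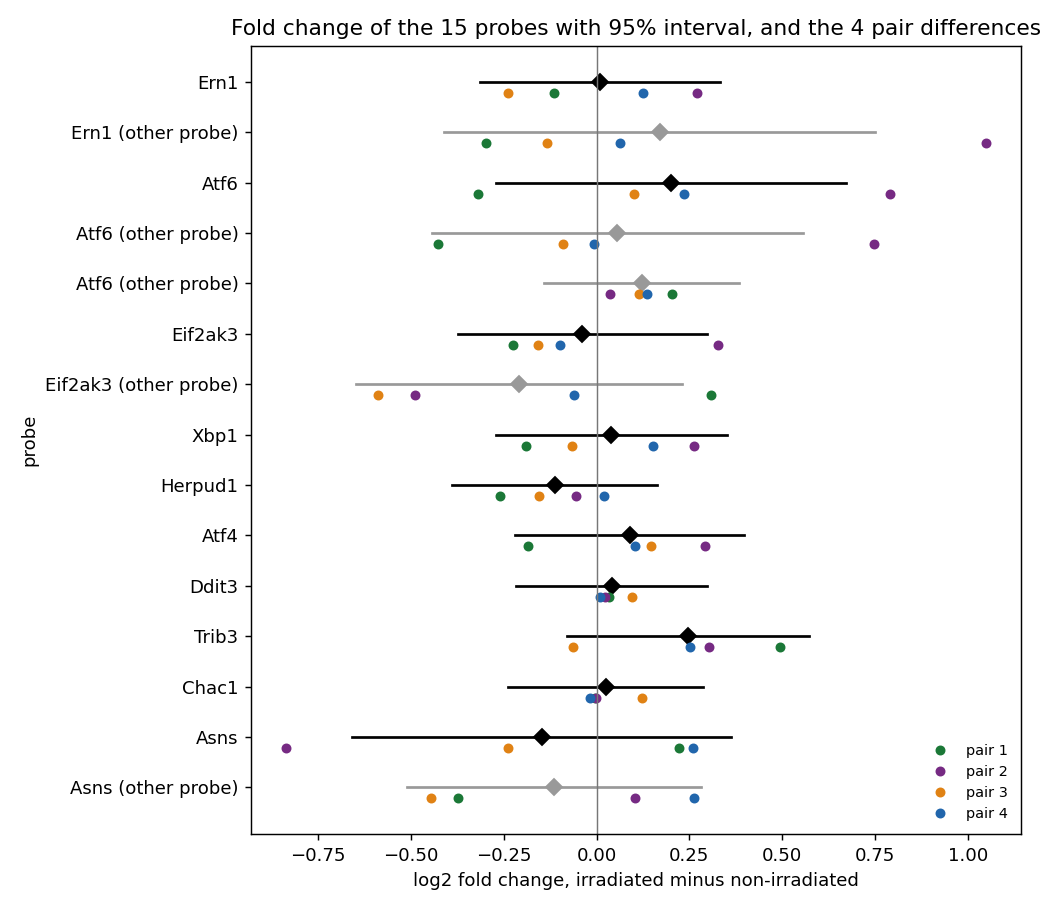
Log2 fold change (irradiated minus non-irradiated) of each of the 15 probes with its 95% interval (diamonds and lines; black for leading probes, grey for the others), and the 4 pair differences as coloured points below it. Every interval holds 0, and pairs 1 and 2 lie on opposite sides of 0 for the leading probes of Atf6, Ern1, Eif2ak3, Xbp1, Atf4 and Asns.

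The spread between cultures was about as wide for the 10 genes as for other probes. Their median SD over the 4 cultures was 0.29 in non-irradiated and 0.24 in irradiated arrays, and over all probes tested it was 0.30 in both groups. The pairs did not share a direction. In pair 1, 3 of the 10 genes were higher in the irradiated array, with a median difference of -0.15, and in pair 2, 7 were higher, with a median of 0.27. In pairs 3 and 4, 4 and 8 genes were higher, with medians of -0.065 and 0.11. Over all probes with 8 values, 42.8%, 56.9%, 46.9% and 50.2% were higher in pairs 1 to 4. Across 26250 probes, the deviations of irradiated replicate 2 from its group mean correlated at 0.439 with those of non-irradiated replicate 1 and at 0.0542 with those of its own partner. Genes that set cultures apart did not all place irradiated 2 with the same culture. The cartilage gene Col9a1 was at 16.37 on irradiated 2, 15.89 on non-irradiated 2 and 10.38 on non-irradiated 1, and Ddit3 at 11.54, 11.52 and 11.85. In the same order, Runx2 was at 11.79, 10.58 and 11.46 and Cd14 at 9.32, 10.03 and 9.29, nearer to non-irradiated 1. The pair differences and standard errors depend on the pairing by replicate number, and the fold changes of genes with 8 values do not. The signs of pairs 1 and 2 were opposite for 6 of the 10 genes, and for 74.2% of all probes, so opposite signs were not particular to the 10 genes. The median size of the pair difference over all probes was 0.25 in pair 1, 0.34 in pair 2 and 0.14 in both pair 3 and pair 4.

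The arrays that were high for the sensors also stood apart in probes outside the pathway. In a principal component analysis of 26040 probes of other genes, the first component held 51.1% of the variance. Its scores were 74.3, -12.3, -27.2 and -48.8 on non-irradiated arrays 1 to 4 and 35.5, 48.9, -25.2 and -45.2 on irradiated arrays 1 to 4. Non-irradiated 1, irradiated 1 and irradiated 2 were thus the 3 arrays with positive scores.

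A measure of probe position moved with these scores. For 3634 genes outside the lists with tested probes 100 to 50000 bases apart on 1 strand, the log2 signal of the most upstream probe was subtracted from that of the most downstream probe and centred over the 8 arrays. The median was 0.17, -0.071, -0.033 and -0.15 on non-irradiated arrays and 0.072, 0.11, -0.056 and -0.092 on irradiated arrays, highest on the same 3 arrays. Within pairs 1 to 4 it differed by -0.096, 0.18, -0.022 and 0.054, the same signs as the median differences of the 10 genes. The medians over all probes with 8 values had these signs too, at -0.064, 0.085, -0.014 and 0.0011, so the match was not particular to the 10 genes. Among the members, the Asns difference was high on non-irradiated 1 and irradiated 2, at 0.57 and 0.73, but -0.027 on irradiated 1, and the Eif2ak3 difference on non-irradiated 1, irradiated 1 and irradiated 2, at 0.97, 0.44 and 0.34. Ern1 went the other way, with -0.43, -0.25 and -0.049 there and 0.73 on non-irradiated 2. Atf6 was near 0 on these arrays, at 0.0018, 0.11 and 0.023, and highest on irradiated 3, at 0.30. The 4 genes thus did not share a pattern. The upstream Eif2ak3 probe was dim. Its log2 signal of 4.02 on non-irradiated 1 lay below those of the other non-irradiated arrays, which adds to the difference of 0.97 there. With the measure as a covariate beside the replicate block, a choice made after seeing the data, the log2 fold changes were 0.25 for Trib3, 0.092 for Atf6, 0.047 for Atf4 and -0.056 for Asns, and -0.095 for Eif2ak3 and -0.14 for Herpud1. Trib3 thus kept its size, Atf6, Atf4 and Asns came closer to 0, and Eif2ak3 and Herpud1 went further from it. Ddit3 and Chac1 were 0.044 and 0.029, and Xbp1 and Ern1 changed sign, to -0.0088 and -0.037. With the covariate, 0 probes passed the adjusted threshold in limma, and 1359 had an unadjusted p under 0.05. The block, the group and the covariate together use up most of the 8 arrays, and the covariate was measured on the same arrays. The shifts of single genes are given without SE and were not tested. The part of RNA quality in these differences was not tested.

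**Figure D4:**
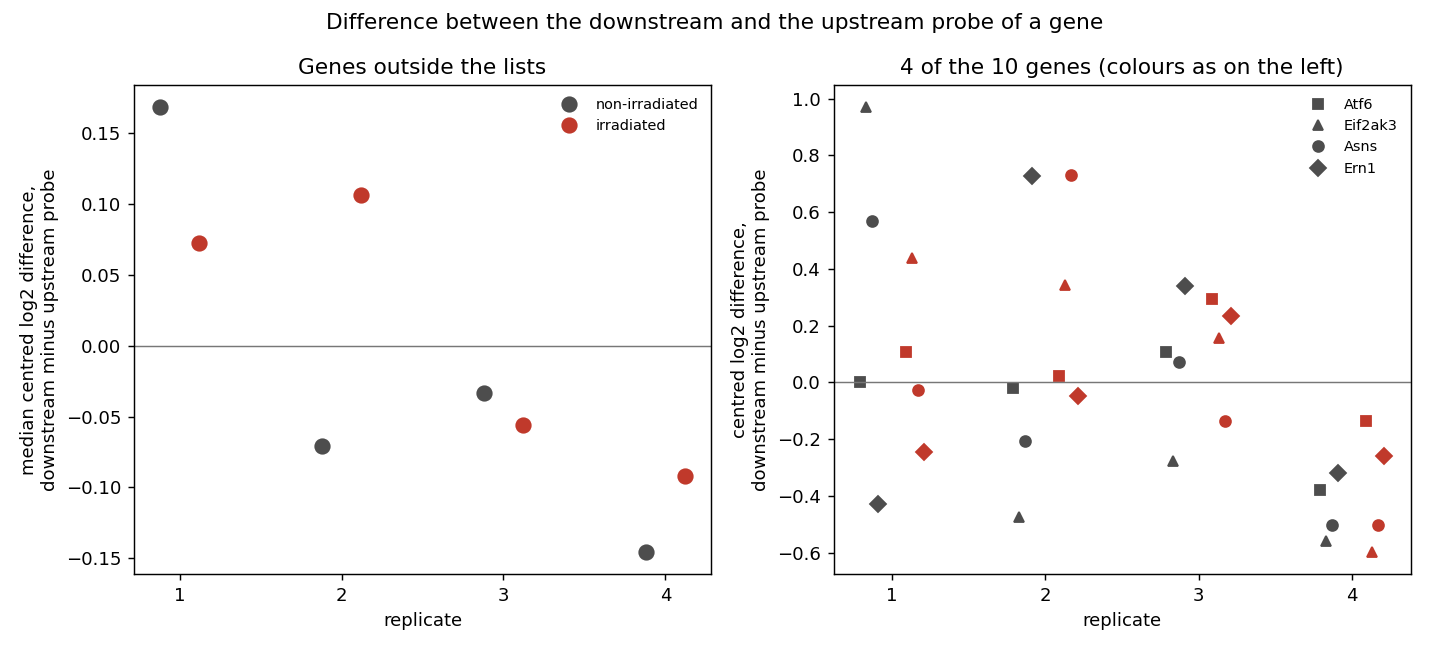
Left, the median over 3634 genes of the centred log2 difference between the downstream and the upstream probe of a gene on each array; right, the same difference for Atf6, Eif2ak3, Asns and Ern1. Non-irradiated replicate 1 and irradiated replicates 1 and 2 lie above 0 on the left, and Asns and Eif2ak3 are highest on arrays among these, whereas Atf6 is highest on irradiated replicate 3 and Ern1 on non-irradiated replicate 2.

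The rest of the pathway was described by 9 lists with 121 other genes, of which 117 were tested. Among them 43 were higher and 74 lower in irradiated arrays, with a median log2 fold change of -0.031, beside -0.0035 over all probes, of which 48.8% were higher. In limma, 0 of the 117 genes had an adjusted p under 0.1 and 0 an unadjusted p under 0.05, where all probes had 2.54%. Sars was lower in 4 of 4 pairs, 1 of 117 genes, beside 4% of all probes. Ern2 was the 1 gene higher in 4 of 4 pairs, where all probes had 3.57%, but it passed the filter on dim probes only through the irradiated arrays, so its direction was favored by that filter. For 99 of the 117 genes, or 84.6%, pairs 1 and 2 had opposite signs, beside 74.2% of all probes. By list, this held for 3 of 7 sensors and proteases, 5 of 8 effectors and 12 of 12 eIF2 genes.

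Among the other ER membrane sensors and the proteases that cut them, 3 of 7 tested genes were higher and 4 lower, with a median log2 fold change of -0.011 that was 0.047 without replicate 1. Ern2, the epithelial relative of Ern1, had the highest value, 0.18 ± 0.11 (SE, n = 4 pairs), with pair differences of 0.24, 0.16, 0.19 and 0.14. It was a dim probe, well above background on 3 non-irradiated and 4 irradiated arrays, so it was tested only because of the group in which it was higher, and nothing is read from its direction. Creb3l4, a membrane-bound transcription factor, was lowest at -0.18 ± 0.14, and Mbtps2, a protease that cuts ATF6, was too dim to test.

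Of the eIF2 kinases, phosphatase subunits and eIF2B genes, 4 of 12 were higher and 8 lower, with a median of -0.032. That median was -0.012 without replicate 1 and -0.011 without replicate 3. The heme-regulated kinase Eif2ak1 was highest, at 0.099 ± 0.12 (SE, n = 4 pairs), and Dnajc3, an ER co-chaperone that inhibits eIF2 kinases, was lowest at -0.17 ± 0.21. All 12 had opposite signs in pairs 1 and 2, as Dnajc3 did with 0.35 and -0.88. Of the 5 other transcription factors of the integrated stress response, 1 was higher and 4 lower, with a median of -0.022 that was 0.067, 0.075 and 0.033 without replicates 1, 2 and 3 and -0.069 without replicate 4. The higher one was the early response gene Atf3, at 0.12 ± 0.11, and the lowest was Cebpg, a partner of ATF4, at -0.14 ± 0.23.

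Genes for amino acid synthesis and transport, many of them ATF4 targets, were higher in 5 and lower in 14 of 19 tested, with a median of -0.054. That median was -0.026 without replicate 2 and -0.12 without replicate 4. The transporter Slc7a3 was highest, at 0.11 ± 0.19 (SE, n = 4 pairs), and Cth, which makes cysteine, was lowest at -0.23 ± 0.22, with -0.96 in pair 2. The medians of this list in the 4 pairs were 0.0089, -0.28, -0.17 and 0.13, so the pairs differed in sign, and Cbs was too dim to test. Cytosolic tRNA synthetases were higher in 5 and lower in 7 of 12, with a median of -0.039 that was 0.0037 without replicate 1. Nars was highest at 0.086 ± 0.21 and Yars lowest at -0.26 ± 0.22, and Sars differed by -0.049, -0.32, -0.14 and -0.14 in the 4 pairs. Of the secreted and growth-limiting effectors, 3 of 8 tested were higher and 5 lower, with a median of -0.028 that was 0.010 with the deposited values and 0.0086 with probes averaged. The death receptor Tnfrsf10b was highest at 0.14 ± 0.20 and Sesn2, an inhibitor of mTORC1 signaling, lowest at -0.26 ± 0.16. Tnfrsf10b was dim, well above background on 4 non-irradiated and 3 irradiated arrays, and the median was -0.048 with probes well above background on all 8 arrays. Fgf21 and Stc2 were too dim to test.

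The ER chaperones and foldases are the main products of the unfolded protein response, and 3 of 15 were higher and 12 lower, with a median of -0.090. Calr, a chaperone for glycoproteins, was lowest at -0.36 ± 0.17 (SE, n = 4 pairs), with pair differences of -0.20, 0.072, -0.51 and -0.81. Its log2 signals were 14.86, 14.70, 14.33 and 13.62 on non-irradiated arrays and 14.66, 14.77, 13.82 and 12.80 on irradiated arrays, so the groups overlapped and replicate 4 was lowest in both. The prolyl isomerase Ppib was highest, at 0.079 ± 0.11. Hspa5, the chaperone BiP, was looked up outside the naming rule after its values were seen, and had 0.048 ± 0.11, with pair differences of -0.066, 0.13, 0.060 and 0.066. The median of the list depended on replicates 1 and 2: it was -0.20 without replicate 1 and 0.016 without replicate 2. Of the 15 genes, 14 had opposite signs in those pairs.

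The genes of ER-associated degradation were higher in 5 and lower in 11 of 16, with a median of -0.028 that was 0.029 without replicate 2 and 0.0043 without replicate 3. Edem3, which trims mannose from misfolded glycoproteins, was highest at 0.12 ± 0.21 (SE, n = 4 pairs). Derl2, a part of the channel for their export, was lowest at -0.22 ± 0.36, with 0.76 in pair 1 and -1.58 in pair 2. The genes of ER translocation and export were higher in 14 and lower in 9 of 23, with a median of 0.020 that was -0.0074 without replicate 4. The translocon subunit Sec63 was highest at 0.10 ± 0.12, and the COPII coat gene Sec24d was lowest at -0.13 ± 0.34, with 0.72 in pair 1 and -1.40 in pair 2.

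**Figure D5:**
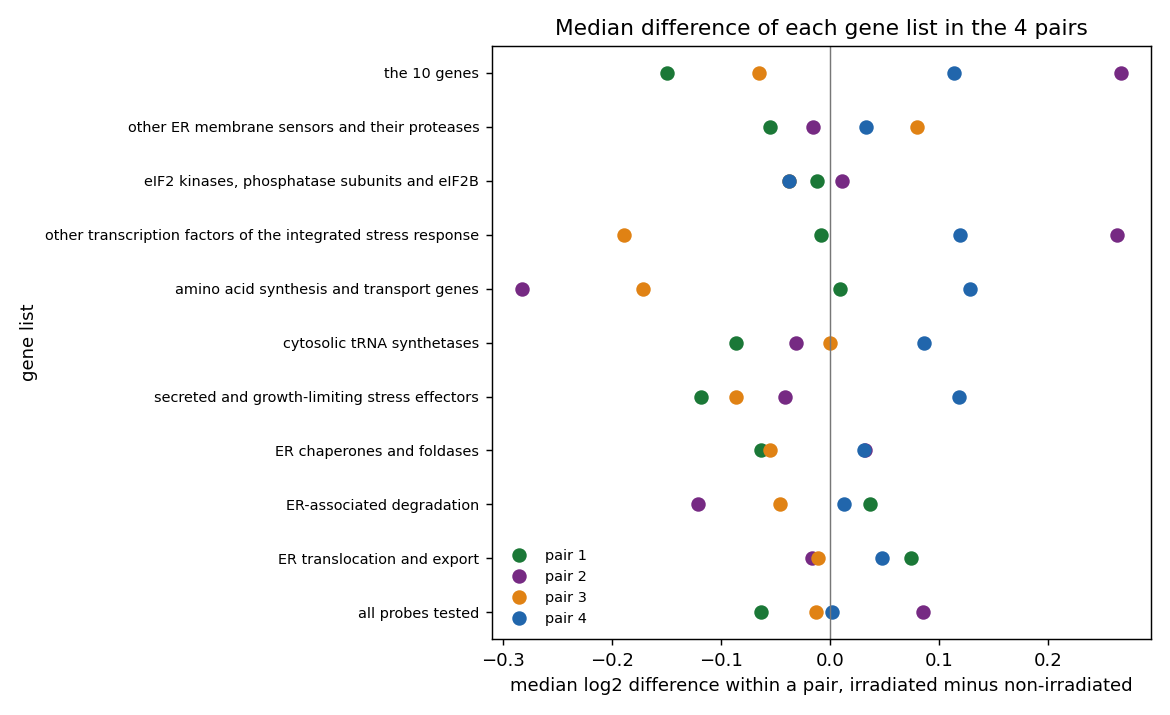
Median log2 difference within each pair (x axis, irradiated minus non-irradiated) for the 10 genes, the 9 other lists of the pathway and all probes with 8 values; colours stand for the 4 pairs. Each list has pairs on both sides of 0, and the 10 genes run from -0.15 in pair 1 to 0.27 in pair 2.

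The genes most like the members were sought by Pearson's r over the 8 arrays, which come from 4 replicate numbers and share the features described above. The mean centred profile of Atf4, Ddit3, Trib3, Asns and Chac1 was -0.058, -0.049, -0.029 and 0.034 on non-irradiated arrays and 0.054, -0.093, -0.015 and 0.16 on irradiated arrays. This mean was nearly flat, with irradiated replicate 4 highest, because its genes ran opposite ways: Atf4 was highest on non-irradiated 1, irradiated 1 and irradiated 2, where Asns was lowest. Most like it were Tp53i11 (r = 0.967), Dhx8 (0.966), Gss (0.951), Ankrd26 (0.941) and Foxp4 (0.939). The profile of Atf6, Xbp1, Herpud1, Ern1 and Eif2ak3 was 0.39, -0.077, -0.027 and -0.32 on non-irradiated arrays and 0.17, 0.24, -0.13 and -0.24 on irradiated arrays. It was high on non-irradiated 1, irradiated 1 and irradiated 2, as the first component was. Most like it were RT1-M3-1 (r = 0.996), Pan3 (0.996), Ell2 (0.996), Bcl2l2 (0.995) and Ndel1 (0.995). All 10 genes named here had an adjusted p of 1.00 in limma, with log2 fold changes from 0.0088 for Bcl2l2 to 0.33 for Tp53i11.

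Promoters were searched for response elements because several members are textbook targets of ATF6, XBP1 and ATF4. RefSeq promoters (build GRCr8, 250 bases before to 50 after the start) were at hand for 8 of the 10 genes, all except Atf6 and Ern1. On both strands, the ER stress element (ERSE), CCAAT and CCACG with 9 bases between them, was in 1 of the 8, Xbp1, and in 0.0657% of 33469 promoters. ERSE-II, ATTGG and CCACG with 1 base between them, shares CCACG with it and was in 1 of the 8, Herpud1, and in 0.0508% of all. The core of the CEBP-ATF response element, TGATGNAA, was in Chac1, Trib3 and Herpud1 and in 3.98% of all, and the core of the unfolded protein response element, TGACGTG, in 0 of the 8 and in 1.81%. The sites are shown with the motif in capitals and 5 bases on each side, on the strand that holds the motif.
Xbp1, ERSE: acaggCCAATCGCAGACGGCCACGaccct
Herpud1, ERSE-II: cgctgATTGGGCCACGttggg
Herpud1, TGATGNAA: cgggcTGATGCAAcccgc
Chac1, TGATGNAA: aggagTGATGCAAcggcg
Trib3, TGATGNAA: ccggcTGATGTAAacctg
The printed stretches lie at chr14:84604553-84604581 for Xbp1, chr19:10614816-10614836 and chr19:10614879-10614896 for Herpud1, chr3:126795959-126795976 for Chac1 and chr3:161275542-161275559 for Trib3. A match describes letters in a window and shows no binding. The log2 fold changes of the 3 genes with TGATGNAA were 0.25 for Trib3, 0.024 for Chac1 and -0.11 for Herpud1, each with a 95% interval that held 0, and differences between them were not tested.

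Marker genes were set beside these results, since differences in cell make-up and in RNA per cell cannot be told apart on arrays of whole cultures. All 9 osteoblast markers were tested. The log2 of their summed signals, led by Col1a1, was 19.01, 18.94, 18.92 and 19.08 on non-irradiated arrays. On irradiated arrays it was 19.00, 18.74, 19.01 and 19.00. All 9 were well above background on every array, but the sum was carried by Col1a1, and other markers varied more. Alpl was at 10.90, 10.11, 10.30 and 8.39 on non-irradiated arrays and at 10.57, 10.57, 10.34 and 8.63 on irradiated arrays, highest on the same 3 arrays as the sensors. Bglap, at 7.05 and 6.65, and Ibsp, at 4.86 and 4.47, were also lowest in replicate 4 of both groups. Runx2 and Dlx5 were lowest there too. Col1a2 was instead highest there in both groups, at 17.65 and 17.59, and Sp7, Spp1 and Col1a1 were lowest on other arrays. Sums of the other marker lists are also the log2 of summed signals, with untested markers included. The sum of the 4 cartilage markers, led by Col9a1, was 12.11, 16.66, 17.21 and 16.25, and in irradiated cells 11.88, 16.81, 17.31 and 16.22. Replicate 1 was low in both groups, which sets apart the cultures of that number.

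The sum of the 4 endothelial markers, led by Kdr, was 10.33, 9.56, 9.01 and 8.67 on non-irradiated arrays and 10.07, 10.39, 8.92 and 8.77 on irradiated arrays. It was highest on the same 3 arrays as the sensor genes, but through Kdr, since Pecam1, Cdh5 and Tek each had another array among their 3 highest. The 5 muscle markers, led by Acta1, had sums of 8.94, 8.27, 8.14 and 7.84, and in irradiated cells 8.55, 8.47, 8.03 and 7.81, with Myod1 too dim to test. That sum was also highest on those 3 arrays, but of the tested markers this held for Ckm and not for Acta1, Des or Myog. The 8 macrophage markers, led by Cd14, had sums of 10.33, 10.47, 10.42 and 10.39, and in irradiated cells 10.61, 10.10, 10.47 and 10.55. The macrophage sum was carried by Cd14, which was lowest on non-irradiated 1 and irradiated 2, at 9.29 and 9.32. The other 4 tested markers, Cd68, Aif1, Lyz2 and Tyrobp, were each highest on the same 3 arrays as the sensors. Lyz2 had 8.17, 7.50 and 6.24 on non-irradiated 1, irradiated 1 and irradiated 2, and at most 5.92 on the other arrays. Of the 8 macrophage markers, Ptprc, Csf1r and Adgre1 were too dim to test, and Ptprc was well above background on 0 non-irradiated and 1 irradiated array. The medians of the log2 fold changes were 0.016 for the osteoblast, 0.022 for the cartilage, 0.035 for the endothelial, -0.043 for the muscle and 0.055 for the macrophage list. The part of other cell types in the levels of the 10 genes was not tested.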

How the data were processed

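Spot values deposited by the authors are intensity from Agilent Feature Extraction 11.0.1.1 (per the labels), background-corrected within an array without normalization across arrays. A deposited table holds log2 values that the authors had quantile normalized. Processed signals of 58717 rat spots were transformed to log2 and quantile normalized, outlying spots were left out, and spots of a probe were averaged. The filter kept 26404 probes, each well above background in over 50% of spots on the 4 arrays of one or both groups, and 26391 could be fitted. The comparison used limma 3.58.1 (lmFit, eBayes) under R 4.3.3, a fixed block for replicate number, Benjamini-Hochberg adjustment over all probes tested and two-sided tests, with an exact sign-flip permutation test over pairs beside it. The pairs rest on the replicate numbers of the labels and on the animal numbers in the names of the scanner files. Across 26250 probes, which are not independent, deviations from the group means correlated within replicate numbers 1 to 4 at 0.608, 0.0542, 0.571 and 0.749. Irradiated 2 reached 0.439 with non-irradiated 1, and non-irradiated 2 reached 0.303 with irradiated 3. Some marker genes that differ between cultures, such as Col9a1, put irradiated 2 with non-irradiated 2. Others, such as Runx2 and Cd14, put it nearer to non-irradiated 1. The fit was tested on simulated data.

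Named genes were the 10 members by the probe with the highest mean signal, the genes of each list with an unadjusted p under 0.05 and those with its highest and lowest fold change, and the 5 genes most like each member profile. Members and lists were chosen with earlier results of these data known. Positions on build rn4 are those of the array, and positions of promoters are on another build, so both were kept apart. Alternatives were 75th-percentile scaling, normexp with an offset of 50, the mean signal, other filters, the deposited values, outlying spots kept, each replicate left out, no or a random block, a trended robust prior and averaged probes. Another 3, namely replicates 1 and 2 only, replicates 3 and 4 only and a probe position covariate, were chosen after seeing the data.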

Additional observations from a re-analysis of the deposited data

Results flagged for a closer look

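In 2 of 34 groups of 4 arrays, 1 array lay apart from the other 3 beyond Dixon's 95% limit, and chance gives about 1 in 20. Irradiated replicate 3 of the Herpud1 probe had a log2 signal of 12.20, and the other 3 irradiated arrays 12.33 to 12.34. Non-irradiated replicate 1 of the second Eif2ak3 probe had 4.02, and the other 3 non-irradiated arrays 4.80 to 4.93. That array also had the highest first component score and the highest probe position measure.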

How the results depend on the processing

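In the alternatives that count probes (all but averaged probes), 0 probes had an adjusted p under 0.1 in limma. Between 5 and 8 of the 10 genes were higher in the alternatives other than the trended robust prior, which was run for probe counts alone. The filters and the block choices cannot change the fold change of a gene with 8 values, nor can averaging for a gene with 1 probe. In the other alternatives, Atf4, Atf6, Ddit3, Herpud1 and Trib3 kept their direction, between 0.022 and 0.18 for Atf4, 0.0049 and 0.38 for Atf6, 0.022 and 0.11 for Ddit3, -0.16 and -0.063 for Herpud1, and 0.094 and 0.40 for Trib3.

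The number of probes with an unadjusted p under 0.05, 670, was 250 with normexp, 251 with the mean signal, 292 with the deposited values, 383 with the trended robust prior, and 1658 without a filter, where 45585 probes were tested. It was 246 without the replicate block and 694 with a random block, and 389 to 1407 with a replicate left out. It was 162 in replicates 1 and 2 only, 1673 in replicates 3 and 4 only and 1359 with the position covariate. The cause was not tested.

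The other 5 genes changed sign, most with a main value near 0 but Asns with -0.15. Chac1 was -0.0055 with the deposited values and -0.0031 in replicates 1 and 2 only. Eif2ak3 was 0.052 in replicates 1 and 2 only. In replicates 3 and 4 only, Asns was 0.012 and Ern1 -0.057, and with the position covariate Ern1 was -0.037 and Xbp1 -0.0088. With a replicate left out, Xbp1 ranged from -0.035 to 0.12, Asns from -0.28 to 0.082, Ern1 from -0.076 to 0.094, Chac1 from -0.0083 to 0.039 and Eif2ak3 from -0.16 to 0.024. The median of the chaperone list ranged from -0.20 to 0.016 with a replicate left out, and was -0.023 in replicates 3 and 4 only and -0.034 with the position covariate. The median of the eIF2 list was -0.065 in replicates 3 and 4 only. With a replicate left out, medians ranged from -0.041 to 0.047 for sensors and proteases, -0.069 to 0.075 for other transcription factors, -0.066 to 0.0037 for tRNA synthetases, -0.038 to 0.029 for ER-associated degradation and -0.0074 to 0.034 for ER translocation, so these have no stable sign. They ranged from -0.12 to -0.026 for amino acid genes, -0.055 to -0.0046 for effectors, -0.029 to -0.011 for the eIF2 list and 0.013 to 0.047 for the 10 genes, whose median was 0.010 with the position covariate. The effector median was positive in 3 other alternatives: 0.010 with the deposited values, 0.0086 with probes averaged and 0.033 in replicates 3 and 4 only. The cause was not tested.

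Each interval rests on 4 pairs and on the variance that limma borrows from all probes tested, so changes within it could not be detected. Levels of different probes cannot be compared. Dim probes, such as that of Ern2 and the second one of Eif2ak3, carry background in their log2 signal. Slide column and irradiation cannot be told apart. The arrays read RNA at 1 time and 1 fluence, and neither splicing, translation nor protein was measured.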
